A study of Mus musculus with 31 samples.

Results

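The data described here are the levels of 10 genes of inflammation and reactive gliosis, C3, C4b, Tlr4, Il1r1, Ikbkb, Nfkbia, Lcn2, Serpina3n, Lgals3 and Cxcl12, among 54532 genes counted in the mouse hypothalamus. The genes were taken by name. C4b, Lgals3, Lcn2 and Cxcl12 were picked because earlier results on these libraries had set them apart between the groups, so their group differences are given as a description, with no test. C3, Tlr4, Il1r1, Ikbkb, Nfkbia and Serpina3n were tested. All 10 genes passed the filter on low counts, which kept 18743 genes.

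Total RNA came from the hypothalamus of C57BL/6J mice, an inbred strain, in 31 libraries of 4 groups. Dams ate a control diet or a high-fat-high-sugar diet (called obesogenic) while pregnant and while nursing. Offspring of both kinds of dam went onto chow at weaning on postnatal day 21, every animal was switched at 3 months to 4 weeks of obesogenic feeding, and all were studied at 4 months. The groups are called control females (8 libraries), obesogenic females (7), control males (8) and obesogenic males (8) after the maternal diet and the offspring's sex, so the diet that differs is that of the dam, and no group was kept on chow throughout. The labels name no litter and no animal beyond a number in the library title, and 2 titles hold 2 numbers, so p-values measure the spread between these libraries. Whole hypothalamus was used, in which fewer cells of a type and less RNA per cell cannot be told apart.

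Between 23118626 and 38547288 read pairs were counted per library, and 1 pair was worth 0.0259 to 0.0433 CPM (a count divided by the library total and scaled to a common depth). Levels are given below as CPM scaled by TMM, edgeR's correction for library composition. Over all genes tested, 3 libraries stood apart, with a median correlation to the others of 0.910 to 0.936 against 0.967 to 0.979 for the remaining ones. They are control female 5, control male 6 and obesogenic female 3; numbers within a group follow the order of deposit and only name a library. Reads fell in 18513 genes in obesogenic female 3 and in 18734 in control male 6, against 21311 to 22918 in the other libraries. Markers of hypothalamic neurons summed to 157 CPM in control female 5, against 1219 to 4069.7 in the other libraries, and olfactory bulb markers to 2834 against at most 499.7, so control female 5 went against its tissue label. Another 2 libraries, control female 7 and control male 7, went against their sex label in Xist and 4 Y-linked genes. Results that rest on these 5 libraries are given with and without them (26 libraries).

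Complement is a cascade of blood and tissue proteins that tags debris, microbes and, in the brain, synapses for removal; C4 is cleaved early in its classical branch and C3 is the component on which all branches converge. Tlr4, a receptor for bacterial lipopolysaccharide, and Il1r1, the receptor for interleukin-1, signal through the kinase encoded by Ikbkb, which marks the inhibitor encoded by Nfkbia for degradation and so frees the transcription factor NF-kB. Reactive gliosis is the change of shape and gene expression of astrocytes and microglia in injury or inflammation, of which Lcn2 and Serpina3n (astrocytes) and Lgals3 (microglia) are widely used markers. In the hypothalamus, this signalling and glial reactivity have long been studied in rodents fed fat-rich diets.

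Reads of C4b are shared in part with its copy C4a, so the stretch in which the copies differ most is shown first. Over the 5214 bases of the C4b coding sequence, 96.0% were identical to the C4a transcript, with 201 mismatches and a longest identical run of 433 bases. Of the 5165 windows of 50 bases in that sequence, 35.5% also stand in C4a, and pairs that lie wholly in such stretches cannot be assigned to 1 of the 2 genes. The window of 60 bases with the most mismatches lies in exon 21 of C4b, in coding sequence on the minus strand (chr17:34735430-34735489, GRCm38). It holds 13 mismatches, printed here in capitals.
C4b: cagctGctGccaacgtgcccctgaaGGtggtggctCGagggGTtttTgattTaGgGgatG
C4a: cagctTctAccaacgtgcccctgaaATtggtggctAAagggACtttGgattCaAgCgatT
Serpina3n shares 11.1% of such windows with Serpina3e-ps, Serpina3g and Serpina3c, and the other 8 genes share none with another annotated transcript.

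Nfkbia is itself switched on by NF-kB, which is why promoters were searched for the factor's consensus site. In the 250 bases before the start of transcription (RefSeq, GRCm38.p6), a match to the NF-kB consensus on either strand stood in 3.90% of 32841 promoters of all genes. Promoter rows were matched for 7 of the 10 genes, and Nfkbia and the second promoter of Il1r1 held a match. The windows around them follow, with the match in capitals, at chr12:55492648-55492706 (minus strand) and chr1:40266336-40266393 (plus strand).
Nfkbia: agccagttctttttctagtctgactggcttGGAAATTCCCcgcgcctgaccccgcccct
Il1r1: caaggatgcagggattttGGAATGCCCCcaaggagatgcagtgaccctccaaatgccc
The matches begin 29 and 232 bases before the respective starts. The palindrome TTCNNNGAA, the core of a STAT site, stood in 7.02% of all promoters and in none of the 7 genes' windows. A match describes the letters and shows no binding.

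The genes spanned a wide range of levels. Per kilobase of annotated exon, the mean TMM-scaled CPM over 31 libraries was highest for Serpina3n at 40.4. Nfkbia followed at 12.9, C4b at 11.6 and Cxcl12 at 5.09. Ikbkb stood at 1.86, C3 at 1.19, Lgals3 at 1.10, Lcn2 at 0.897, Il1r1 at 0.613 and Tlr4 at 0.282. The levels of Nfkbia and C4b lay close together, as did those of C3, Lgals3 and Lcn2. The length used joins all annotated exons of a gene, 19078 bases for Ikbkb and 8176 for Cxcl12. Their coding sequences hold 2271 and 357 bases. The order of the genes therefore depends in part on the annotation and is only rough. The spread between libraries of a group, over the 26 libraries, was smallest for Ikbkb, with a coefficient of variation of 9.52%, and largest for Lcn2 at 98.2%. Serpina3n (15.9%), Nfkbia (17.3%), C4b (17.8%), Cxcl12 (19.9%) and C3 (23.8%) lay between, and the low genes Il1r1 (33.5%), Lgals3 (39.3%) and Tlr4 (40.4%) varied more.

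**Figure D1:**
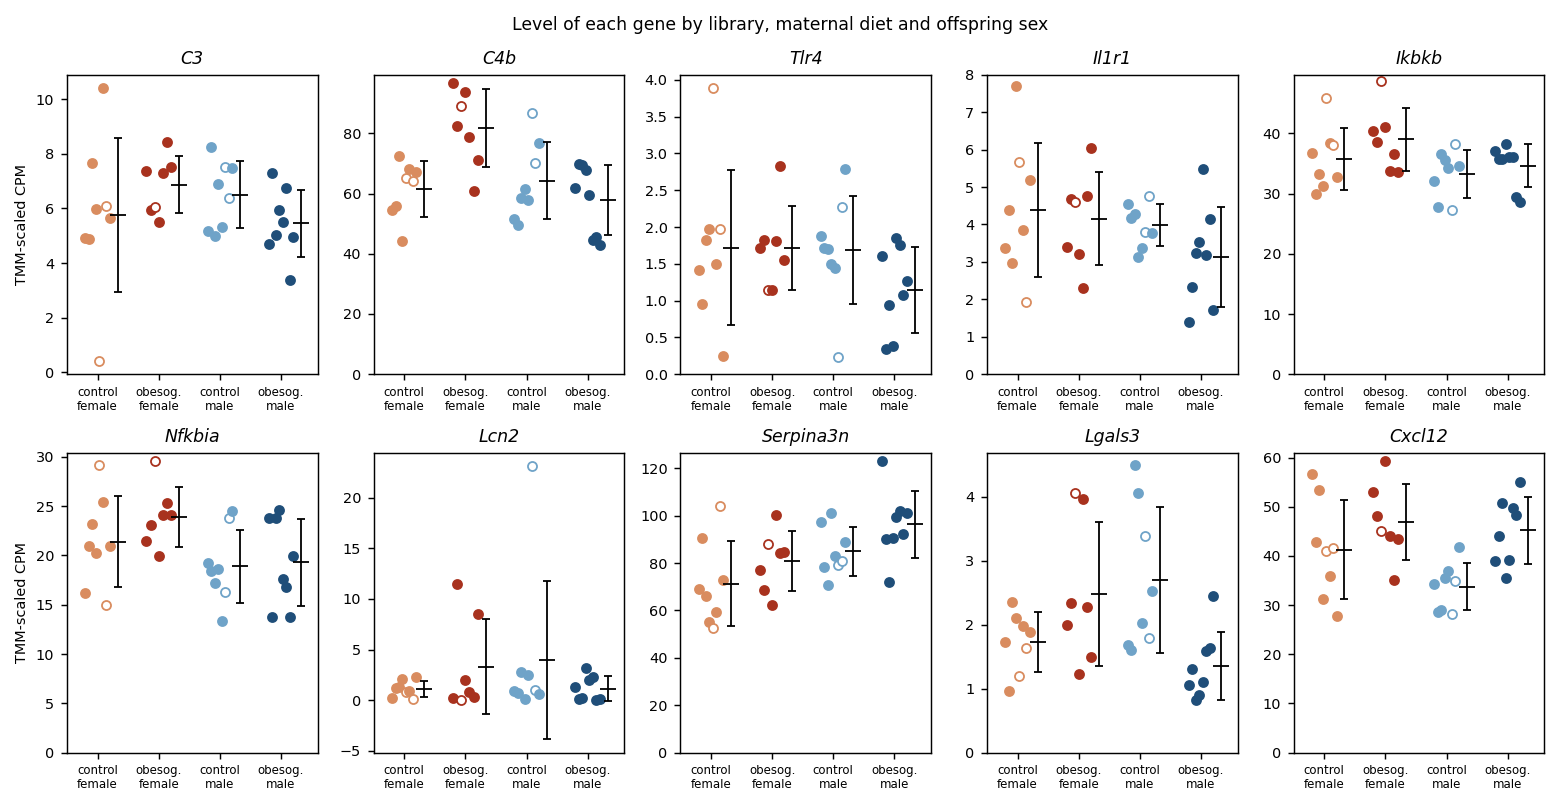
TMM-scaled CPM (y axis, linear) of each of the 10 genes in each library (points), by maternal diet and offspring sex, with the group mean ± SD (black bars); open points are the 5 libraries that stood apart or went against their sex label. The 4 groups overlap for every gene, and 1 control male library holds the highest Lcn2 level, 23.1.

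No gene separated any pair of groups completely. Of 40 comparisons (10 genes, obesogenic against control within each sex and females against males within each maternal diet), all 40 had overlapping groups. Over all genes tested, groups that did not overlap were also rare: 0.117% of genes for maternal diet in females, 0.0160% for maternal diet in males, 0.0107% between control females and males, and 0.101% between obesogenic females and males. Each control group holds 1 library against its sex label, with Xist at 0.310 CPM in control female 7 and 565 in control male 7. Genes that follow sex therefore overlap between these groups, and overlap there says little about sex. With an adjusted p under 0.05 (edgeR's quasi-likelihood test, Benjamini-Hochberg adjustment over 18743 genes) 0 of the 6 tested genes passed in any of the 6 contrasts, nor did any by DESeq2 or limma voom. With edgeR, 0% of all genes passed in each of these contrasts, with smallest adjusted p-values of 0.50 for diet in females, 0.940 in males, 0.464 over both sexes, 1.0 for the interaction, 0.356 for sex under the control diet and 0.0702 for sex under the obesogenic diet. Xist was at 203 CPM or more in every obesogenic female and at most 0.0559 in obesogenic males, yet did not pass in this fit. The fit also holds the 2 libraries against their sex label. A share of 0% therefore does not show that no gene differs.

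At an unadjusted p under 0.05, 8.12% of all genes passed for diet in females, 3.45% for diet in males, 10.2% for diet over both sexes and 3.62% for the interaction, against 0, 0, 1 and 0 of the 6 tested genes. The gene over both sexes was Serpina3n. Between females and males, 4.39% of all genes passed under the control diet and 3.63% under the obesogenic diet, against 1 (Serpina3n) and 2 (Serpina3n and Nfkbia) of the 6. In direction, 8 of the 10 genes had a higher estimate in obesogenic than in control females (median log2 fold change 0.18, against -0.013 over all genes), and 4 of 10 in males (median -0.20, against 3.8e-04). The same counts in the 26 libraries were 9 of 10 in females (median 0.20) and 4 of 10 in males (median -0.11). These counts hold the 4 genes picked for their differences; of the 6 tested genes, 4 were higher in females and 3 in males.

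**Figure D2:**
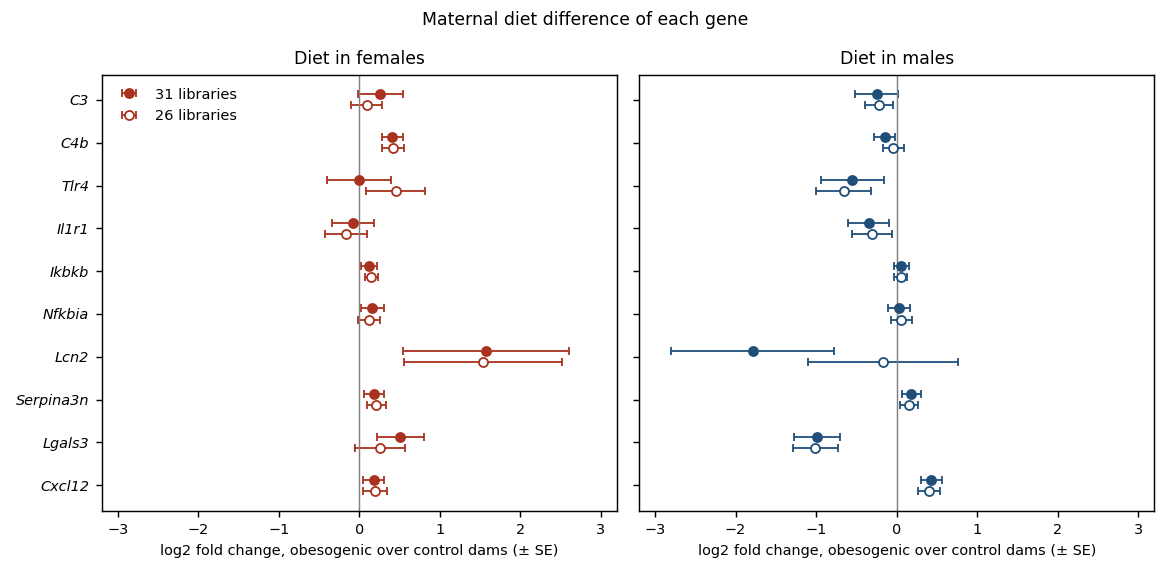
Log2 fold change, obesogenic over control dams, ± SE from the edgeR fit (x axis), of each gene in females (left) and males (right), in 31 libraries (filled) and 26 libraries (open). Lcn2 has the widest bars, and its estimate in males moves from -1.79 to -0.17 when 5 libraries are left out.

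C3, the central complement component (chr17:57203970-57228136, minus strand), was low in all groups. Its lowest, median and highest levels were 0.433, 5.82 and 10.4 CPM in control females and 5.50, 7.30 and 8.44 in obesogenic females. In control males they were 4.98, 6.65 and 8.24, and in obesogenic males 3.40, 5.27 and 7.29. The lowest value of all, 0.433, belongs to control female 5, the library with few hypothalamic markers, and the next lowest control female had 4.87. The log2 difference by maternal diet was 0.26 ± 0.28 (SE) in females and -0.25 ± 0.27 in males, with adjusted p-values of 0.804 and 0.940 (edgeR). Without control female 5, chosen after seeing the data, the estimate in females was 0.083 ± 0.17. The 95% intervals, -0.32 to 0.84 in females and -0.81 to 0.31 in males, still hold differences of C3 in either direction.

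C4b, which encodes complement C4 (chr17:34728380-34743882, minus strand), had the highest levels in obesogenic females. The 7 obesogenic females had 96.8, 82.3, 89.0, 93.8, 78.9, 60.7 and 71.0 CPM. The 8 control females ranged from 44.3 to 72.5 with a median of 64.7, so that 5 of 7 obesogenic females lay above every control female and the other two lay within their range. In males the order was not seen: control males had 49.7, 60.1 and 86.8 (lowest, median, highest) and obesogenic males 42.9, 60.6 and 69.8. Among obesogenic males, libraries 6, 7 and 8 (44.7, 45.6 and 42.9) lay below every control male, and the other five had 59.6 to 69.8.

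As a description, the log2 fold change of C4b was 0.41 ± 0.13 in females and -0.15 ± 0.13 in males, and the difference of the 2 was 0.57 ± 0.18. In 26 libraries these were 0.42 ± 0.14, -0.042 ± 0.13 and 0.46 ± 0.19. Obesogenic females lay 0.50 ± 0.13 above obesogenic males, with 6 of 7 above the highest obesogenic male. C4a, the copy (chr17:34809092-34823464), held 0.563% to 5.48% of the summed C4b and C4a level per library. The sum keeps the order, with means of 63.4 ± 9.44 (SD, n = 8) CPM in control females, 84.4 ± 13.1 (n = 7) in obesogenic females, 65.8 ± 12.6 (n = 8) in control males and 59.7 ± 11.8 (n = 8) in obesogenic males. C4a itself reached at most 5.16 CPM in a library; pairs left out of both genes as shared were not measured.

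Of 20 tested complement genes besides C3 and C4b, 0 passed in any contrast, with 10 higher and 10 lower in females (median log2 fold change -0.0073) and 7 higher and 13 lower in males (median -0.21). In 26 libraries the counts were 9 higher and 11 lower in females (median -0.028) and 8 higher and 12 lower in males (median -0.10). C1qb and C1qc, which encode chains of the C1q complex that starts the classical branch, had the smallest p over both sexes. C1qb differed by -0.28 ± 0.11 (edgeR adjusted p 0.464) and C1qc by -0.18 ± 0.086 (adjusted p 0.475). Masp1, a protease of the lectin branch, had the smallest p in females, at -0.47 ± 0.21 (adjusted p 0.585). In 26 libraries C1qb stood at -0.15 ± 0.075 over both sexes and Masp1 at -0.26 ± 0.16 in females.

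Tlr4 (chr4:66827584-66930284, plus strand) was the lowest gene per kilobase, with 6 to 144 pairs per library. Control females had 0.249, 1.66 and 3.89 CPM (lowest, median, highest) and obesogenic females 1.14, 1.72 and 2.83. Control males had 0.239, 1.71 and 2.79, and obesogenic males 0.345, 1.17 and 1.85. The control female at 3.89 is library 5 and the control male at 0.239 is library 6, both of which stood apart. The log2 difference by diet was -0.0073 ± 0.40 in females and -0.55 ± 0.39 in males (edgeR adjusted p 0.998 and 0.940), and 0.45 ± 0.37 and -0.66 ± 0.34 in 26 libraries. The interaction of diet and sex was 0.54 ± 0.56 (adjusted p 1.0), and 1.11 ± 0.50 in 26 libraries (adjusted p 1.0).

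Il1r1 (chr1:40225080-40317257, plus strand) was a little more abundant. Its lowest, median and highest levels were 1.94, 4.11 and 7.69 CPM in control females, 2.30, 4.59 and 6.04 in obesogenic females, 3.14, 3.98 and 4.75 in control males and 1.39, 3.21 and 5.48 in obesogenic males. Obesogenic males were the most spread of the males, with 3 of 8 libraries below and 1 above the whole control male range. The log2 difference was -0.081 ± 0.26 in females and -0.35 ± 0.25 in males (edgeR adjusted p 0.937 and 0.940).

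Ikbkb, the kinase subunit (chr8:22659212-22706589, minus strand), was the steadiest of the 10. Levels were 29.9, 35 and 45.9 CPM (lowest, median, highest) in control females, 33.6, 38.5 and 48.7 in obesogenic females, 27.3, 34.3 and 38.2 in control males and 28.6, 35.9 and 38.2 in obesogenic males. Its highest values, 48.7 and 45.9, both come from libraries that stood apart (obesogenic female 3 and control female 5), and the lowest, 27.3, from control male 6, the third of them. The difference by diet was 0.12 ± 0.10 in females and 0.055 ± 0.093 in males (edgeR adjusted p 0.724 and 0.95). The 95% intervals of Ikbkb, -0.074 to 0.32 and -0.13 to 0.25 on the log2 scale, are the narrowest among the 6 tested genes in both sexes.

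Nfkbia, the inhibitor and a target of NF-kB (chr12:55489410-55492647, minus strand), had 15, 21 and 29.2 CPM in control females and 19.9, 24.1 and 29.6 in obesogenic females. Control males had 13.3, 18.5 and 24.5 and obesogenic males 13.8, 18.8 and 24.6. By maternal diet it differed by 0.16 ± 0.14 in females and 0.026 ± 0.14 in males (edgeR adjusted p 0.757 and 0.986). All 7 obesogenic females lay above the mean of obesogenic males, a log2 difference of 0.31 ± 0.14 with an unadjusted p of 0.0387 and an adjusted p of 1.0. The highest values, 29.6 and 29.2, come from obesogenic female 3 and control female 5, which stood apart. The control female at 15 is library 7, which went against its sex label. In 26 libraries the diet differences were 0.12 ± 0.14 in females and 0.058 ± 0.13 in males. Obesogenic females there lay 0.25 ± 0.13 above obesogenic males.

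Around these receptors and kinases, 39 other genes of NF-kB and inflammatory receptor signalling were tested and 0 passed in any contrast. In females 21 were higher and 18 lower (median 0.024), and in males 18 and 21 (median -0.012). Nfkb2, which encodes the p100 precursor of NF-kB, had the smallest p in females: 4.33 ± 1.16 CPM (SD, n = 7) in obesogenic against 2.78 ± 1.42 (n = 8) in control females, a log2 difference of 0.64 ± 0.22 (edgeR adjusted p 0.524). Socs3, a feedback inhibitor of cytokine and leptin receptor signalling, stood at 4.26 ± 1.49 against 3.06 ± 0.636 CPM, a difference of 0.48 ± 0.19 (adjusted p 0.549). In obesogenic and control males the means were 2.95 and 3.08 CPM for Nfkb2 and 2.89 and 2.91 for Socs3. Stat3, the transcription factor that cytokine and leptin receptors activate, differed by 0.18 ± 0.059 over both sexes (adjusted p 0.464), and the TNF receptor gene Tnfrsf1a by -0.20 ± 0.071 (adjusted p 0.464). In 26 libraries these 4 estimates were 0.59, 0.46, 0.17 and -0.17. The cytokine genes Tnf, Il6 and Il1rn on the list did not pass the filter on low counts.

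Lcn2 encodes lipocalin 2, an iron-carrier-binding protein made by reactive astrocytes and by neutrophils (chr2:32384633-32388252, minus strand). A few libraries carried most of its reads. The 7 obesogenic females had 0.157, 11.5, 0, 1.99, 0.807, 0.328 and 8.48 CPM, so that libraries 2 and 7 lay above every control female and the other five did not. The control females ranged from 0.141 to 2.31 with a median of 1.03. Control males had 23.1 CPM in library 6, which stood apart, and 0.140 to 2.77 in the other seven. Obesogenic males ranged from 0 to 3.15 with a median of 0.740. Obesogenic female 3 and obesogenic male 7 had 0 pairs, and a count of 0 allows up to 3 counts, 0.122 and 0.0937 CPM at the depth of these libraries (counting error only). Obesogenic female 3 is also the library with reads in the fewest genes, 18513, which this bound does not cover.

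The group medians of Lcn2, 1.03, 0.807, 0.944 and 0.740 CPM in control females, obesogenic females, control males and obesogenic males, lay close together. The fitted log2 fold change was 1.57 ± 1.03 in females and -1.79 ± 1.01 in males. A single library set the estimate in males, which was -0.12 ± 0.93 without control male 6. The estimate in females fell less, to 0.82 ± 1.05 without obesogenic female 2 and 1.13 ± 1.07 without obesogenic female 7. These alternatives were chosen after seeing the data. The interaction, 3.36 ± 1.44 in all libraries, was 1.70 ± 1.30 without control male 6. It was 2.62 ± 1.44 without obesogenic female 2 and 2.92 ± 1.47 without obesogenic female 7.

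Neutrophil and monocyte markers were counted beside Lcn2. Their sum was 16.8 CPM in control male 6, against 1.98 to 4.91 in the other control males, with the calprotectin genes S100a8 at 4.31 and S100a9 at 4.87. In obesogenic females 2 and 7 the sum was 5.27 and 2.12, within the range of the other obesogenic females (1.43 to 6.26). Of the other genes on the list, Ltf (1.20) and Ly6c2 (1.64) were also highest in control male 6, where Ngp was at 1.28, Mpo at 0.918 and Ccr2 at 1.80 CPM. Plac8 was at 0.718 there and Ly6g at 0.0798, while Camp, Elane and Retnlg were at 0. Over 31 libraries Lcn2 and the list had r = 0.43 and rho = 0.33 (permutation p 0.024 for r, adjusted over 140 pairs 0.21), and over 26, which leave out control male 6, r = 0.30 and rho = 0.22 (adjusted p 0.65). The part of these cells in the Lcn2 level of control male 6 was not tested.

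Serpina3n, a secreted serine protease inhibitor of reactive astrocytes and oligodendrocytes (chr12:104406729-104414329, plus strand), was the most abundant of the 10 genes. Levels were 52.5, 67.5 and 104 CPM (lowest, median, highest) in control females, 62.4, 84.1 and 100.3 in obesogenic females, 70.9, 81.9 and 101 in control males and 72.2, 95.9 and 123 in obesogenic males. The group medians were ordered with offspring of control dams below those of obesogenic dams in each sex, and the ranges overlapped throughout. Its estimates by diet were equal in the sexes, 0.18 ± 0.12 in females and 0.18 ± 0.12 in males (edgeR adjusted p 0.691 and 0.940). Over both sexes the difference was 0.18 ± 0.086, with an unadjusted p of 0.0436 and an adjusted p of 0.478, and the interaction was 6.0e-04 ± 0.17. In 26 libraries the difference over both sexes was also 0.18 (SE 0.082, adjusted p 0.599).

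By sex, Serpina3n was lower in females under both maternal diets. The log2 difference, females minus males, was -0.25 ± 0.12 under each, with unadjusted p-values of 0.0416 (control) and 0.0493 (obesogenic) and adjusted p-values of 0.995 and 1.0 (edgeR). Of the 8 control females, 5 lay below every control male. The lowest of these, at 52.5 CPM, is library 5, which went against its tissue label. The control female at 104 CPM is library 7, 1 of the 2 that went against their sex label. In 26 libraries the sex difference was -0.33 ± 0.12 under the control diet and -0.28 ± 0.11 under the obesogenic diet.

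Of 30 other genes of reactive astrocytes tested, 0 passed in any contrast; 16 were higher and 14 lower in females (median 0.0074), and 5 higher and 25 lower in males (median -0.22), against 50.1% of all genes higher in males. In 26 libraries the count in males was 11 higher and 19 lower (median -0.11). Vim, an intermediate filament of reactive astrocytes and tanycytes, stood at 58.2 ± 7.56 CPM (SD, n = 8) in obesogenic and 73.9 ± 16.1 (n = 8) in control males, a log2 difference of -0.34 ± 0.12 (edgeR adjusted p 0.940), and -0.27 ± 0.10 in 26 libraries. Timp1, an inhibitor of matrix proteases, differed by -1.47 ± 0.52 in males (adjusted p 0.940), and by -0.58 ± 0.36 in 26 libraries.

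Lgals3 encodes galectin-3, a sugar-binding protein of phagocytic microglia and macrophages (chr14:47367751-47386160, plus strand). The 8 obesogenic males had 1.06, 1.31, 0.814, 0.900, 1.10, 1.59, 1.64 and 2.44 CPM. The control males had 1.68, 1.61, 4.50, 4.05, 2.02, 3.39, 1.79 and 2.52. All obesogenic males lay below the control male mean of 2.70, and 6 of 8 lay below every control male; library 7 at 1.64 and library 8 at 2.44 lay within the control range. In females the order was the other way, with 0.955, 1.80 and 2.35 (lowest, median, highest) in control and 1.23, 2.27 and 4.06 in obesogenic females, and much overlap.

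As a description, the log2 fold change of Lgals3 was -0.99 ± 0.28 in males and 0.51 ± 0.29 in females, with a difference of 1.51 ± 0.40. In 26 libraries these were -1.01 ± 0.28, 0.26 ± 0.31 and 1.28 ± 0.42; the highest obesogenic female, at 4.06, is library 3, which stood apart. Counts behind these values were low, 26 to 177 pairs per library.

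Microglial markers were set beside Lgals3. Of 14, 6 were higher and 8 lower in obesogenic than in control males (median log2 fold change -0.0074, with 0 called), and in 26 libraries 8 were higher and 6 lower (median 0.0026). Lgals3 varied apart from them within groups, with r = -0.031 for microglia and -0.16 for macrophages of the brain borders over 26 libraries. Of 20 genes of activated microglia, 18 were lower in obesogenic females (median -0.18) and 18 in obesogenic males (median -0.25), and 0 passed. In 26 libraries 16 and 17 of 20 were lower, with medians of -0.11 and -0.10. Spp1, which encodes osteopontin, had the smallest p over both sexes at -1.08 ± 0.40 (edgeR adjusted p 0.464), and -0.28 ± 0.25 in 26 libraries. In females Igf1 had the smallest p, at -1.31 ± 0.41 (edgeR adjusted p 0.523), and stood at -0.21 ± 0.21 in 26 libraries. Lpl, lipoprotein lipase, came second in females at -0.59 ± 0.25 (edgeR adjusted p 0.566), and differed by -0.66 ± 0.23 in 26 libraries. Tanycyte and ependyma markers had r = 0.33 with Lgals3 over 31 libraries (permutation p 0.044, adjusted 0.27) and 0.20 over 26. Of these 10, 9 were lower in obesogenic males (median -0.35), also in 26 libraries (median -0.36), with 0 called. In females 7 were higher and 3 lower (median 0.12), and 4 and 6 in 26 libraries (median -0.11). Their part in the Lgals3 difference was not tested.

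Cxcl12 encodes a chemokine of vessels, meninges and some neurons (chr6:117168535-117181367, plus strand). Obesogenic males had 38.9, 44.1, 50.7, 35.6, 39.1, 49.8, 48.3 and 55.1 CPM. The control males had 34.3, 28.5, 29, 35.6, 36.9, 28.2, 35 and 41.8, so that 5 of 8 obesogenic males lay above every control male and all 8 above the control male mean of 33.7. Control females, with 27.7, 41.3 and 56.7 (lowest, median, highest), and obesogenic females, with 35.2, 45.1 and 59.4, overlapped widely. The log2 fold change was 0.43 ± 0.13 in males and 0.18 ± 0.13 in females, and their difference -0.24 ± 0.18, all as a description. In 26 libraries it was 0.40 ± 0.14 in males and 0.19 ± 0.15 in females. Control males were the group that stood lowest: control females lay 0.30 ± 0.13 above them, while obesogenic females and males differed by 0.054 ± 0.13. In 26 libraries, which leave out those against their sex label, these sex differences were 0.27 ± 0.15 and 0.063 ± 0.14.

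Among 9 genes of ligands, receptors and related proteins of Lcn2, Lgals3 and Cxcl12, 0 passed in any contrast. Cxcr4, the signalling receptor of Cxcl12, stood at 3.46 ± 0.660 CPM (SD, n = 7) in obesogenic and 5.23 ± 3.45 (n = 8) in control females, a log2 difference of -0.60 ± 0.26 (edgeR adjusted p 0.581), and -0.13 ± 0.22 in 26 libraries. In males its means were 4.33 and 4.43. Lgals1, a galectin related to Lgals3, differed by -0.50 ± 0.18 over both sexes (adjusted p 0.464), with both sexes lower in offspring of obesogenic dams (-0.52 and -0.47), and by -0.33 ± 0.14 in 26 libraries.

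Whether the 10 genes vary together was read from differences between libraries of the same group, with the group means taken off log2 CPM. These correlations are a description: the libraries share depth and tissue composition. Of 45 pairs, 0 reached an r of 0.5 in size over 31 libraries, where r ran from -0.47 (Il1r1 and Serpina3n) to 0.41 (C4b and Ikbkb) with a median of -0.057. Over 26 libraries 1 pair did, C4b with Ikbkb, at r = 0.62 and rho = 0.56, and 0.54 without the 2 libraries farthest from the median. C3 and C4b, of 1 cascade, had r = 0.23. Of the 45 correlations over 26 libraries, 22 were positive and 23 negative, with a median of -0.0028.

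Between libraries of a group, Cxcl12 had its highest correlations with vascular and meningeal markers. Its r was 0.80 with the mean of 12 endothelial markers (rho 0.83; 0.78 without the 2 farthest libraries), 0.71 with 10 mural cell markers and 0.72 with 12 meningeal fibroblast markers, over 26 libraries. By permutation of libraries within groups (two-sided, 100000 resamples), the p-values were 2.0e-05, 1.7e-04 and 4.1e-04 and, adjusted over 140 pairs of a gene and a list, 0.0028, 0.012 and 0.019, and these were the 3 pairs that passed. Over 31 libraries the endothelial list alone passed, with r = 0.65 and a permutation p of 2.3e-04 (adjusted 0.032), while mural cells had 0.55 and meningeal fibroblasts 0.60 (0.14 and 0.13). Between the diets, the endothelial list summed to 330.5, 412 and 470.0 CPM in obesogenic males and 329, 362 and 529 in control males, with 8 of its 12 genes higher (median log2 fold change 0.092) and 0 called. The control male at 529 is library 6, which stood apart; in 26 libraries the highest control male had 422, and 11 of the 12 genes were higher (median 0.14), with 0 called. Their part in the difference of Cxcl12 between the males was not tested. The meningeal fibroblast genes lay the other way, 10 of 12 lower in obesogenic males (median -0.20), and 8 of 12 in 26 libraries (median -0.19). Oligodendrocyte markers, which did not pass, had r = 0.65 with Cxcl12 over 26 libraries (rho 0.61; permutation p 0.0023, adjusted 0.061) and 0.33 over 31. Of these 10 markers, 10 were higher in obesogenic males in 26 libraries (median 0.074) and 4 in 31 (median -0.028), with 0 called.

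**Figure D3:**
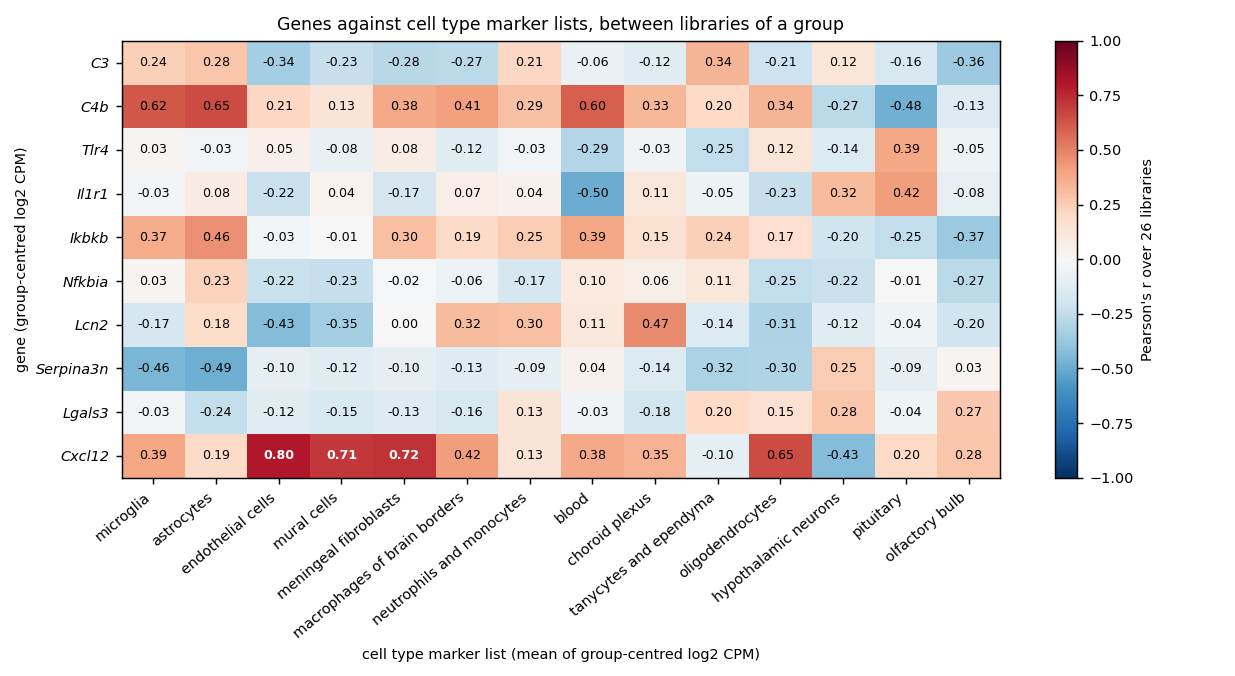
Pearson's r over 26 libraries between each gene (rows) and the mean of each cell type marker list (columns), both as log2 CPM with group means removed; red is positive and blue negative, and bold numbers passed an adjusted permutation p of 0.05. Only Cxcl12 with endothelial cells (0.80), mural cells (0.71) and meningeal fibroblasts (0.72) passed.

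C4b came next, with glial lists. Over 26 libraries it had r = 0.65 with 14 astrocyte markers (adjusted permutation p 0.051), 0.62 with 14 microglial markers (0.061) and 0.60 with blood genes (0.070), none of which passed; over 31 libraries astrocytes had 0.49 and microglia 0.46. Astrocyte markers were 9 higher and 5 lower in obesogenic females (median 0.023) and microglial markers 2 higher and 12 lower (median -0.12), while the C4b estimate in females was 0.41. In 26 libraries both lists had 5 genes higher and 9 lower in females (medians -0.035 and -0.032), so the balance of the astrocyte list turned. Of 5 blood genes tested, 5 were higher in obesogenic females, with a median of 0.40 in 31 libraries and 0.49 in 26. In males 2 were higher and 3 lower (median -0.043), and in 26 libraries 5 were higher (median 0.29). None was called. The part of these lists in the C4b difference was not tested. Serpina3n had an r of -0.49 with the astrocyte list and -0.46 with microglia (adjusted p 0.26 and 0.34). C3 showed r = 0.91 with hypothalamic neurons over 31 libraries and 0.12 over 26, so the first value rests on the libraries left out.

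The genes whose profiles were most like each of the 10, by r over 26 libraries among the 18743 tested, were taken 3 at a time. Lcn2 had the closest neighbour, Lrg1, a secreted leucine-rich glycoprotein of the acute phase, at r = 0.92 (rho 0.91; 0.81 over 31 libraries). Lrg1 was at 1.72 and 1.33 CPM in obesogenic females 2 and 7 and 3.51 in control male 6, the libraries with most Lcn2, and 0 to 1.46 in the other libraries. Tgm2 (0.83) and Numb (0.82) came next, Numb with 0.058 over 31 libraries. For Cxcl12 they were Cd34 (0.82) and Nid1 (0.80), genes of endothelium and basement membrane, and Slco1a4 (0.80), itself on the endothelial list. C4b had Plxnb1 (0.78), Sox9 (0.77), a transcription factor of astrocytes and also on that list, and Srebf1 (0.76), a regulator of lipid synthesis. Serpina3n had Cited2 (0.79, and 0.13 over 31 libraries), Gpc4 (0.75) and Stat3 (0.75).

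**Figure D4:**
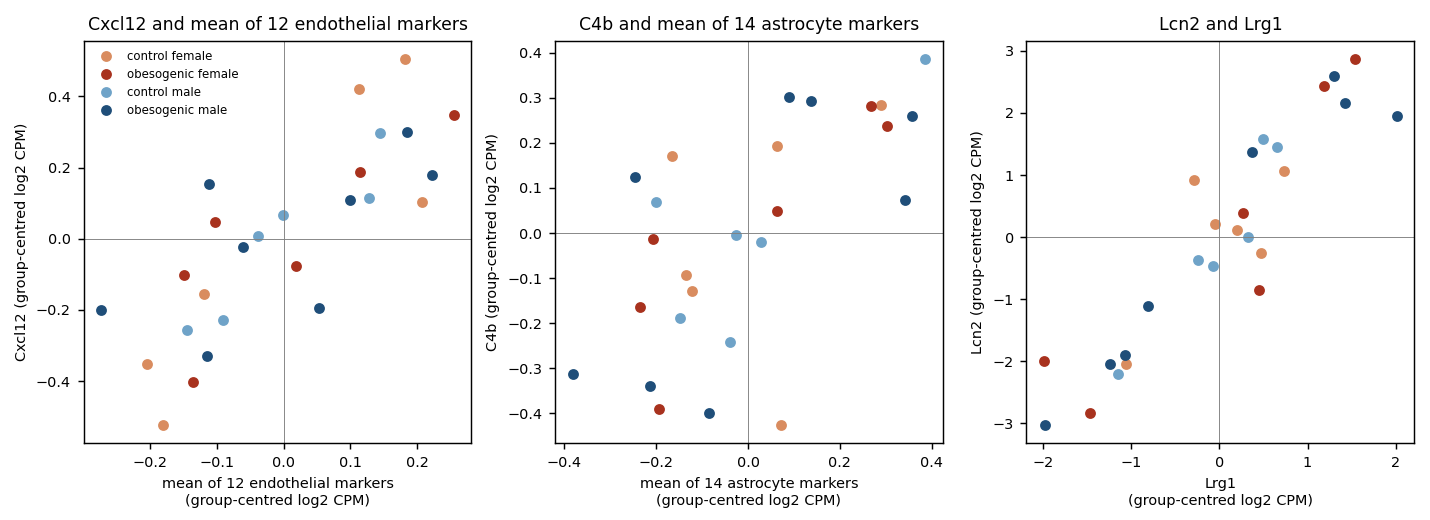
Cxcl12 against the mean of the endothelial markers (left, r = 0.80), C4b against the mean of the astrocyte markers (middle, r = 0.65) and Lcn2 against Lrg1 (right, r = 0.92) in 26 libraries, each axis log2 CPM with group means removed, coloured by group. Libraries of all 4 groups lie along each trend.

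For the other 6 genes the neighbours had r of 0.65 to 0.78. Nfkbia had Arl4d (0.78), Ddit4 (0.74), a stress-induced inhibitor of mTOR signalling, and Ndst2 (0.72). For Il1r1 they were Arrdc2 (0.77), Slc2a1 (0.76), the glucose transporter of the blood-brain barrier, and Pmaip1 (0.73). Tlr4 had Flrt2 (0.74, and 0.087 over 31 libraries), Zmym1 (0.72) and Scfd1 (0.72). C3 had Iqcg, Slc26a3 and Clic6 (each 0.68), Ikbkb had Bmf and Zc3hav1 (each 0.69), and Lgals3 had Trmt61b (0.67), Ccdc87 (0.66) and Mindy4 (0.65). Each r was selected as among the highest of 18743 and carries no test.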

How the data were processed

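Hypothalamic RNA of 31 libraries was used. The deposited counts are whole read pairs per gene; per the file headers they were made by the authors with featureCounts 1.6.2 (both ends mapped, mapping quality at least 10, reverse strand) on Ensembl GRCm38 release 94. FastQC, TopHat2 2.0.13, Subread, edgeR and mm10 are named per the submitters' processing notes. Multi-mapping pairs are not named in the command, so genes with near-identical copies lose pairs. Batches: not given in the sources used here. Of the sample columns, 0 were left unused. Symbols were matched for 54409 of 54532 gene IDs.

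In R 4.3.3, edgeR 4.0.16 was run on the counts with filterByExpr, TMM scaling, robust quasi-likelihood, 1 mean per group over all libraries, Benjamini-Hochberg adjustment, threshold 0.05. Contrasts were diet within each sex, their mean and difference, and females minus males within each diet. Alternatives were DESeq2 1.42.0, limma 3.58.1 voom with quality weights, RLE factors, no filter, 1 CPM in 7 libraries, only the 2 groups compared, and left-out libraries. Correlations used log2 CPM with a prior count of 2, computed from the deposited counts (0.5 as an alternative). The fit was tested on simulated data. Named genes were the 10 genes, the 2 of smallest p per pathway list and diet contrast, of which a part is printed, and the 3 most similar genes of each, of which 1 is not reported here; the genes of the neutrophil and monocyte list given singly were named after their values were seen. Members and lists were chosen with earlier results of these data known.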

Additional observations from a re-analysis of the deposited data

Results flagged for a closer look

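Within each group, the highest and lowest level of each of the 10 genes was compared with its nearest neighbour, 40 sets of libraries in all, of which chance sets apart about 1 in 20. There were 2 such values. Tlr4 stood at 2.83 CPM in obesogenic female 6, whose nearest neighbour in the group had 1.83; this library is not among the 5 in doubt. Lcn2 stood at 23.1 CPM in control male 6, a library that stood apart over all genes, with 2.77 in the nearest control male.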

How the results depend on the processing

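No tested gene passed an adjusted p of 0.05 under any of 10 alternatives in any contrast (smallest adjusted p 0.393), so leaving out each library in turn was not run. Of 348 values of tested genes under alternatives, 328 kept their direction and their side of the threshold and 20 reversed. For Tlr4, diet in females was 0.30 with voom, 0.45 without the 5 libraries in doubt, 0.36 without the 3 that stood apart and 0.022 without the 2 against their sex label; under the control diet its sex difference was -0.40 (voom), -0.47 (without the 5) and -0.42 (without the 3). Il1r1 with voom was 0.10 for diet in females and -0.12 for sex under the control diet. Nfkbia, diet in males, was -0.027 (voom), -0.0072 (without the 3) and -0.023 (without the 2 with 2 numbers in the title). C3 over both sexes was -0.0076 (voom), -0.064 (without the 5) and -0.057 (without the 3), and by sex under the control diet 0.0033, 0.054 and 0.032. The interaction of Serpina3n was -0.10 (voom) and -0.045 (without the 3). The cause was not tested. The 232 values of the 4 picked genes moved by less than 1 SD between libraries. That margin is wide for a difference of group means, so the count does not show that the values are stable. Without the 5, Lcn2 in males went from -1.79 to -0.17 and Lgals3 in females from 0.51 to 0.26.

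Over all genes, DESeq2 called 6 (diet in females), 1 (males), 5 (both sexes), 6 (interaction), 1 (sex, control diet) and 12 (sex, obesogenic diet), against 0 with edgeR. Sex under the control diet gave 11 without the 5 and 10 without the 2 libraries against their label. Sex under the obesogenic diet gave 2 with voom, 14 without the 5, 1 without the 3, 9 without the 2 and 12 with only its 2 groups. Without the 5, correlated pairs went from 0 to 1 and marker pairs past the threshold from 1 to 3. No paired analysis was possible because the labels give no replicate number shared between groups; the numbers used here follow the order of deposit and pair nothing. Genes of few pairs (Tlr4, Lcn2, Lgals3) are limited by depth.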
